A study of Mus musculus with 18 samples.

Results

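The genes examined are 36 enzymes and regulators of cholesterol and fatty acid synthesis that belong to the SREBP programme or work beside it. They were taken by symbol from the combined count table, where all 36 of 36 were found among 56883 symbols, by a rule that names genes and uses no measured value, though the list was drawn up with earlier results of these data known. They fall into 7 genes of the mevalonate branch, 11 that carry squalene to cholesterol, 6 regulators and sterol carriers, 6 of fatty acid synthesis and malonyl-CoA, and 6 desaturases and elongases.

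Mouse frontal cortex was separated into microglia, astrocyte and neuron fractions for RNA sequencing after daily intraperitoneal clozapine at 10 mg/kg, risperidone at 1 mg/kg or vehicle. Injections ran from postnatal day 60 to 74, and the animals were killed on day 75. All animals, vehicle mice included, were of the strain B6;D2-Tg(S100B-EGFP)1Wjt/J, whose transgene puts EGFP under the S100B promoter, and the labels speak of both sexes in the design and of males under housing. Each pool joined the cortices of 5 animals. There were 2 pools per treatment, 1 in each of 2 batches, and the 3 fractions came in sequence from the same pool, so the 18 libraries form 9 groups of n = 2. Microglia were captured with CD45, neurons with Thy1 and astrocytes with HepaCAM, with endothelial cells and the oligodendrocyte lineage depleted on the way. With 2 pools per group, p-values measure the spread between pools.

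Libraries held 4.71 to 13.39 M assigned counts, with a median of 7.44 M. Defining markers fitted the labelled fractions. All 12 microglia markers were higher in the microglia fraction than in either other fraction, and all 12 astrocyte markers were lower in microglia than in astrocytes. Between astrocytes and neurons, 8 of 12 astrocyte markers were higher and all 12 neuron markers lower in astrocytes. The fractions were enriched and not pure. In CPM, counts scaled to library size, 12 oligodendrocyte markers summed to 476 to 2720 in the microglia libraries, against 6850 to 43900 in those of astrocytes and 7460 to 38500 in those of neurons, with none of the 12 at 0 in any library. The median oligodendrocyte sum in the astrocyte fraction was 19200 CPM, above the 13900 CPM of the 12 astrocyte markers. In the neuron fraction it was 12700 CPM, beside 12200 CPM for the 12 neuron markers. Sums of different lists give no share of cells. Erythroid and dissociation-response markers were highest in the microglia fraction, at 1060 to 13900 CPM and 3020 to 9050 CPM.

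SREBP transcription factors are made as membrane proteins of the endoplasmic reticulum. When sterol is scarce, SCAP escorts them to the Golgi, where proteases free the part that enters the nucleus, and INSIG proteins hold SCAP back when sterol is ample. SREBP-2 mainly drives cholesterol genes, and SREBP-1 mainly drives fatty acid genes. In the adult brain cholesterol is made locally, astrocytes are held to supply much of it to neurons, and oligodendrocytes use very large amounts for myelin. Antipsychotic drugs have been described to raise SREBP target transcripts in cultured cells, which is the background for asking whether these genes move here.

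Promoters are shown for 5 members to set the sequence beside genes that differ between the fractions. Of 36 members, 29 had an entry among the RefSeq promoters of build GRCm38.p6, each running from 250 bases before to 50 bases after the start, which gave 38 member promoters of 32851 in all. The counts are on GRCm39, so these coordinates belong to the sequences alone. The 200 bases before the start are printed on the strand of the gene. Capitals mark a form of the sterol regulatory element, TCACNCCAC, with the NF-Y box CCAAT and the Sp1 box GGGCGG. Each was searched on both strands, so that ATTGG and CCGCCC are the boxes on the other strand. Hmgcs1 and Cyp51 stand for the sterol genes, Fasn for the fatty acid genes, and Acacb and Mlycd for the members that were not called lower in microglia than in the other fractions. The windows are chr13:119690151-119690350 (plus strand) for Hmgcs1, chr5:4104698-4104897 (minus strand) for Cyp51, chr11:120824548-120824747 (minus strand) for Fasn, chr5:114165318-114165517 (plus strand) for Acacb and chr8:119394694-119394893 (plus strand) for Mlycd.
Hmgcs1: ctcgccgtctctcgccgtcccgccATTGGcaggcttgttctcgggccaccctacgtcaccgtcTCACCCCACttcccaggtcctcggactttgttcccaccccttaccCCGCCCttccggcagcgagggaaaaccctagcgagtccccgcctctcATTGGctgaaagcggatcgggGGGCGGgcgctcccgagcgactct
Cyp51: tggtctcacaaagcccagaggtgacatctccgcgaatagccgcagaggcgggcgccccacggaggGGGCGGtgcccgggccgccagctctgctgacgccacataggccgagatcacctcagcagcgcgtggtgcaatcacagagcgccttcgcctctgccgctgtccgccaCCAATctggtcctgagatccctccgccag
Fasn: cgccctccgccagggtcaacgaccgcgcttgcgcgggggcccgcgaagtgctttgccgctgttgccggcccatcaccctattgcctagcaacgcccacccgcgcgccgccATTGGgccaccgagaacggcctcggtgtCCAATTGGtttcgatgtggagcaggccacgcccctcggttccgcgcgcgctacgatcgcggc
Acacb: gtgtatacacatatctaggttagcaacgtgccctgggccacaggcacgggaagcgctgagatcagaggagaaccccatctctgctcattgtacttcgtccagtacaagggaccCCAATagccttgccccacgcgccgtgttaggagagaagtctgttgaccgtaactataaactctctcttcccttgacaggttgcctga
Mlycd: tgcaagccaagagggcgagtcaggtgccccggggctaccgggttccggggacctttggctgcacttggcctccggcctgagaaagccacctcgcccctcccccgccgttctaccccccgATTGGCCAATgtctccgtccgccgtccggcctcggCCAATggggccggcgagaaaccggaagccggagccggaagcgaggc
The TCACNCCAC element was found in 1 of the 29 genes, Hmgcs1, where it began 137 bases before the start. By promoter it was in 1 of 38 member promoters, or 2.63%, against 1.24% of all promoters. At least 1 CCAAT box was found in 24 of the 29 genes, and by promoter in 25 of 38 member promoters, or 65.8%, against 37.4% of all promoters. GGGCGG was found in 22 of the 29 genes, and by promoter in 26 of 38 member promoters, or 68.4%, against 35.7% of all. In the windows shown, Fasn, Acacb and Mlycd hold CCAAT boxes and no GGGCGG, and 2 of the Fasn boxes overlap. These are matches of letters, and no binding was measured. Other forms of the sterol regulatory element were not searched, so a gene without a TCACNCCAC match may still hold the element.

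Levels of different members were compared per length within a fraction, in TPM, a scale that divides counts by exon length before setting each library to the same total. Scd2, a stearoyl-CoA desaturase abundant in brain, was the most abundant member in all 3 fractions, at 310 ± 111 TPM in microglia, 1520 ± 338 TPM in astrocytes and 697 ± 221 TPM in neurons (SD, n = 6 each). In astrocytes it was followed by Scd1 at 226 ± 49.1 TPM, Fads1 at 129 ± 15.8 TPM, Fads2 at 128 ± 24.1 TPM and Hmgcs1 at 123 ± 26.5 TPM, and the last 3 did not differ beyond their SDs. In neurons Scd1 at 109 ± 34.3 TPM and Hmgcs1 at 83.5 ± 16.1 TPM came next and likewise lay within their SDs. In microglia the order below Scd2 was another: Acly, the ATP citrate lyase that makes cytosolic acetyl-CoA, was second at 52.1 ± 3.83 TPM, and Scd1 had rank 10 at 26.7 ± 8.38 TPM. The lowest members were Idi1 in microglia at 3.68 ± 1.08 TPM and Acacb in astrocytes and neurons, at 4.37 ± 2.00 and 1.48 ± 1.17 TPM.

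**Figure D1:**
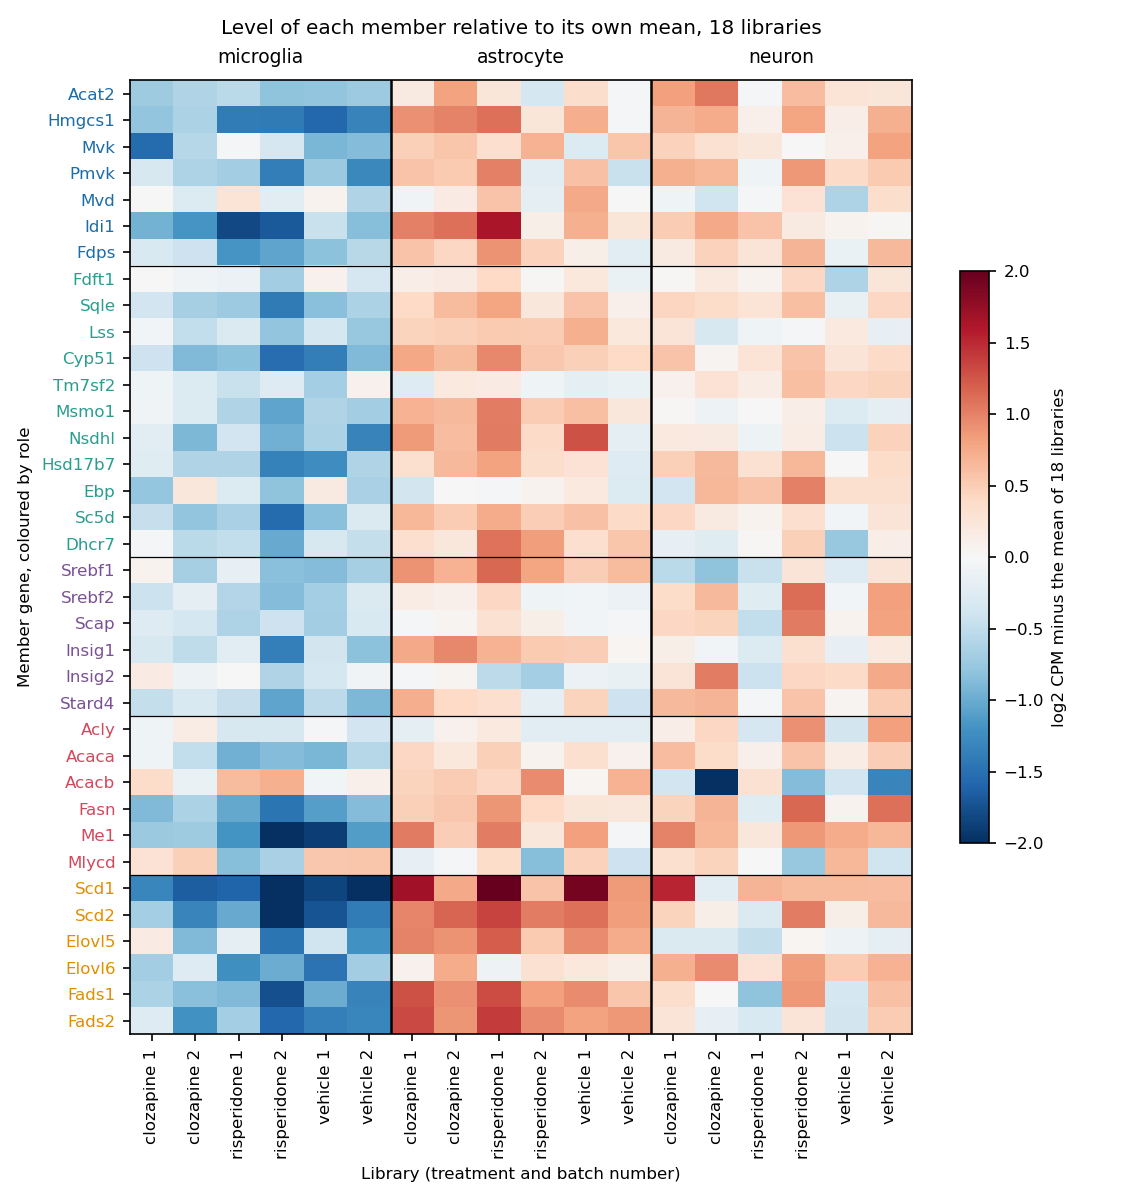
Heat map of the 36 members (rows, coloured by role) in 18 libraries (columns, grouped by fraction, then treatment and batch number). Colour gives log2 CPM minus the member's mean over the 18 libraries. Most members are blue in the 6 microglia columns and red in the astrocyte columns, and Acly, Insig2, Acacb and Mlycd are among those that do not show this.

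The first comparison asks where the programme is high. In microglia against astrocytes, 26 of the 36 members were lower and 0 were higher at an adjusted p under 0.05 (edgeR quasi-likelihood test with pool as a block, Benjamini-Hochberg over 37310 genes). The background was 7.96% of all genes tested lower and 6.55% higher. The median log2 difference of the members was -1.13, against 0.01 for all genes tested. In bulk fractions, fewer cells of a type and less RNA per cell cannot be told apart. In 24 of the 36 members the libraries did not overlap and microglia were lower, against 3.91% of all genes.

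All 6 desaturases and elongases were lower in microglia, with a median of -2.06 and a range of -3.26 to -1.11 on the log2 scale. Scd1, which places the first double bond in stearate, had a lowest, median and highest level of 22.2, 55.2 and 74.7 CPM in the 6 microglia libraries, against 276, 465 and 797 CPM in the 6 astrocyte libraries. Every astrocyte library lay above every microglia library, and the log2 difference was -3.26 (SE 0.29, adjusted p = 8.6e-08, lower in 6 of 6 pools). Fads2, the delta-6 desaturase that opens polyunsaturated fatty acid synthesis, had 28.8, 36.1 and 71.9 CPM in microglia and 150, 163 and 229 CPM in astrocytes in the same order of lowest, median and highest. The groups did not overlap and the log2 difference was -2.09 (SE 0.22, adjusted p = 3.58e-07). Scd1 and Scd2 are close paralogs, and reads common to both could be split or lost in counting, so the level of each is uncertain to that extent.

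Of the 7 mevalonate genes 6 were lower in microglia, and Mvd, which makes isopentenyl diphosphate, was the exception, at 9.71 ± 2.06 CPM in microglia and 12.4 ± 3.51 CPM in astrocytes (SD, n = 6 each). Hmgcs1, the HMG-CoA synthase at the entry of the branch, averaged 67.4 ± 19.1 CPM in microglia and 245 ± 70.0 CPM in astrocytes. Idi1, the isopentenyl diphosphate isomerase, averaged 5.04 ± 1.85 CPM and 20.6 ± 8.31 CPM in the same fractions. Of the 11 genes from squalene to cholesterol 8 were lower. Cyp51, the lanosterol demethylase, had a lowest, median and highest level of 28.2, 44.0 and 61.3 CPM in microglia, against 107, 122 and 158 CPM in astrocytes. The log2 difference of Cyp51 was -1.60 (SE 0.20, adjusted p = 2.55e-06) and its groups did not overlap. The 3 that were not called were Fdft1 (squalene synthase), Tm7sf2 (a sterol reductase) and Ebp (a sterol isomerase). Fdft1 shares 18.8% of its exon bases with the opposite-strand gene Ctsb, and Scap 13.2% with an opposite-strand gene. Tm7sf2 shares 12.1% with Vps51 and Hmgcs1 12.1% with an opposite-strand gene. The counting used no strand and counted reads for every gene they overlap, so reads in the shared bases add to both genes. Over all libraries Ctsb held 194773 counts and Fdft1 10555. How many of the Fdft1 counts came from Ctsb was not tested, so the level of Fdft1 in each fraction is uncertain.

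Regulators were split. Srebf1, Insig1 and the sterol carrier Stard4 were lower in microglia, and the other 3, Srebf2, Scap and Insig2, were not called. Srebf1 averaged 35.8 ± 10.2 CPM in microglia and 86.5 ± 14.0 CPM in astrocytes, and Srebf2 106 ± 18.2 CPM and 158 ± 23.1 CPM (SD, n = 6 each). The Srebf2 libraries did not overlap although its adjusted p was 0.106. Insig2 stood at 11.6 ± 2.11 CPM in microglia and 10.9 ± 2.11 CPM in astrocytes, within the spread of either.

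In fatty acid synthesis Acaca, Fasn and Me1 were lower in microglia, and Acly, Acacb and Mlycd were not called. Me1, the malic enzyme that supplies NADPH, had a lowest, median and highest level of 9.05, 17.3 and 23.8 CPM in microglia, against 37.9, 62.0 and 80.2 CPM in astrocytes, with no overlap. Its log2 difference was -1.88 (SE 0.24, adjusted p = 2.59e-06). Fasn, fatty acid synthase, averaged 107 ± 19.8 CPM in microglia and 292 ± 52.6 CPM in astrocytes. Acly was nearly level, at 106 ± 15.7 CPM in microglia and 111 ± 15.2 CPM in astrocytes. Mlycd, which breaks malonyl-CoA down, averaged 24.0 ± 9.04 CPM in microglia and 20.8 ± 6.82 CPM in astrocytes.

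**Figure D2:**
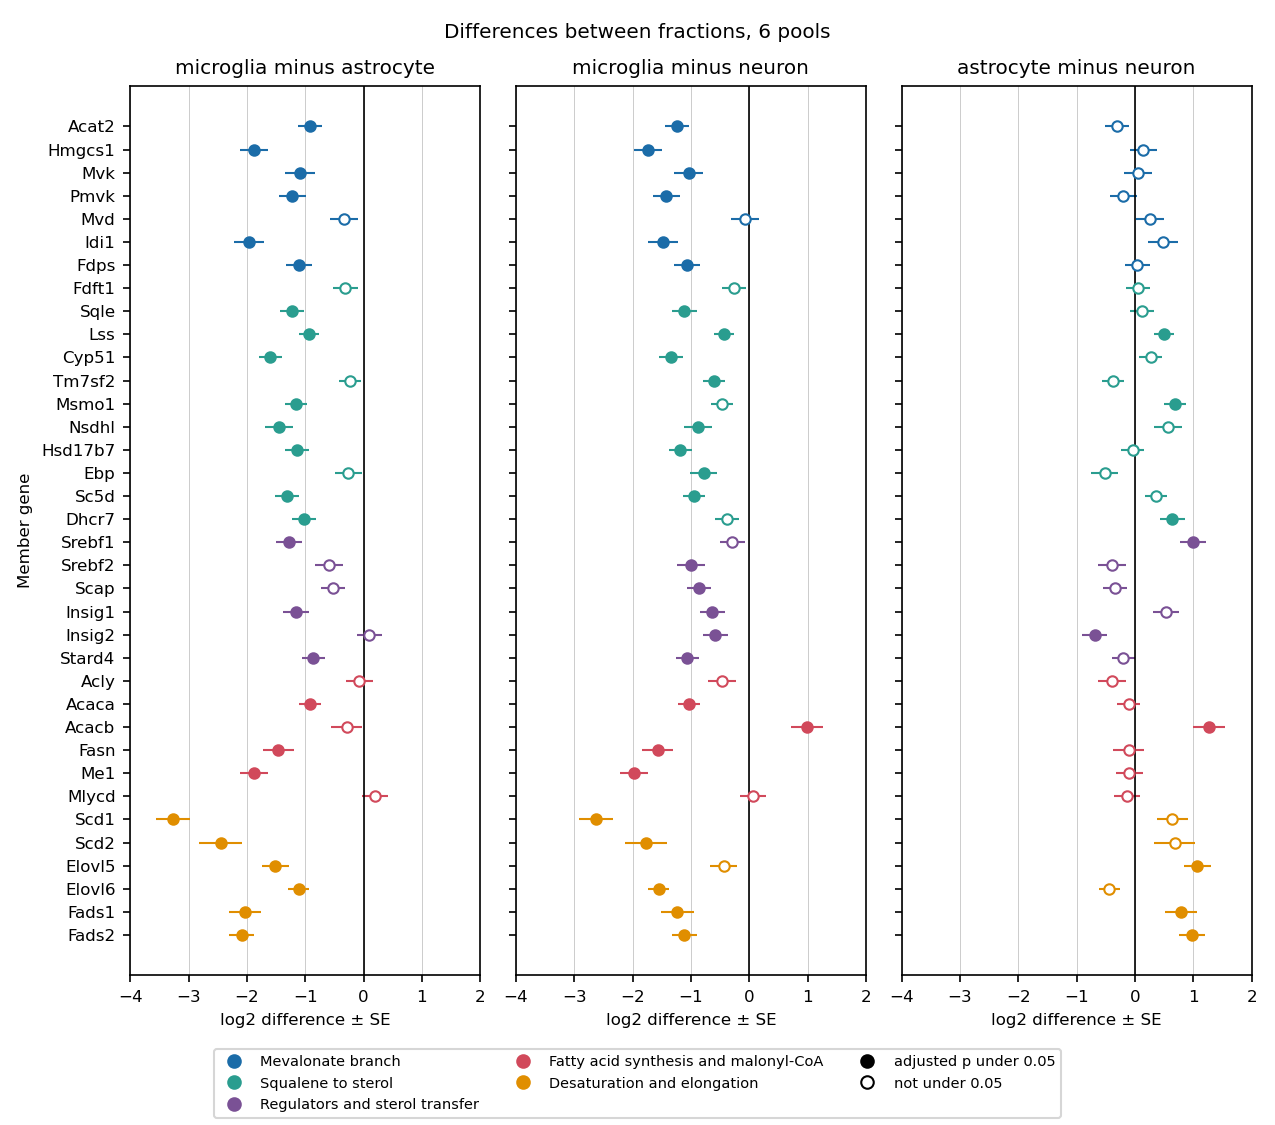
Log2 difference of each member between fractions (points, with SE bars) for microglia minus astrocyte, microglia minus neuron and astrocyte minus neuron, from all 18 libraries with pool as a block. Filled points passed an adjusted p of 0.05: 26, 28 and 9 of the 36 members, and in the first panel all filled points lie left of 0.

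In microglia against neurons, 27 of the 36 members were lower and 1 was higher, against a background of 19.5% of all genes lower and 24.6% higher. The median of the members was -1.01, while that of all genes tested was 0.63. The median of all genes moved to 0.82 when the libraries were scaled by the RLE method in place of TMM. The members' median relative to all genes was -1.64 under TMM and -1.63 under RLE. A change of scaling shifts all genes by about the same amount, so this relative value could hardly move and is no check. The libraries of 17 of the 36 members did not overlap, with microglia lower, against 10.5% of all genes.

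Scd1 had a lowest, median and highest level of 22.2, 55.2 and 74.7 CPM in microglia, against 160, 288 and 534 CPM in neurons, with no overlap. The log2 difference, microglia minus neurons, was -2.62 (SE 0.29, adjusted p = 2.4e-07). Elovl6, which lengthens palmitate to stearate, had 16.8, 26.2 and 39.4 CPM in microglia and 57.2, 76.7 and 90.7 CPM in neurons, with no overlap and a log2 difference of -1.55 (SE 0.18, adjusted p = 5.38e-07). Me1 reached -1.98 (SE 0.24, adjusted p = 8.72e-07), with 45.7 to 78.0 CPM in neurons. Hmgcs1 reached -1.74 (SE 0.24, adjusted p = 4.55e-06), with 50.2 to 96.6 CPM in microglia and 160 to 259 CPM in neurons. By role, 6 of 7 mevalonate genes, 8 of 11 genes from squalene to cholesterol, 5 of 6 regulators, 3 of 6 genes of fatty acid synthesis and 5 of 6 desaturases and elongases were lower.

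Acacb was the member that was higher in microglia than in neurons. It encodes the acetyl-CoA carboxylase at the mitochondrial surface, whose malonyl-CoA restrains entry of fatty acids into mitochondria. Its level was 10.4, 13.5 and 18.9 CPM (lowest, median and highest) in microglia, against 2.64, 7.43 and 14.3 CPM in neurons, so the groups overlapped. The log2 difference was 0.99 (SE 0.27, adjusted p = 0.00482), and Acacb was higher in microglia in 6 of 6 pools.

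Astrocytes and neurons differed in fewer members. In astrocytes against neurons 8 of the 36 were higher and 1 was lower, against 11.5% and 10.1% of all genes, and the median was 0.09 against 0.46 for all genes. In either direction 9 of the 36 were called, near the 21.6% of all genes, so this total is no result about the members as a set. The members' median relative to all genes was -0.37 under both TMM and RLE, a value that a change of scaling could hardly move. None of the 7 mevalonate genes passed. The 8 higher members were Acacb, Elovl5, Srebf1, Fads2, Msmo1, Dhcr7, Lss and Fads1.

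Acacb had a lowest, median and highest level of 11.8, 16.0 and 22.4 CPM in astrocytes, against 2.64, 7.43 and 14.3 CPM in neurons, with some overlap. Its log2 difference was 1.27 (SE 0.27, adjusted p = 0.00262). Elovl5, an elongase of polyunsaturated fatty acids, had 121, 159 and 193 CPM in astrocytes and 59.9, 70.6 and 85.5 CPM in neurons, with no overlap and a difference of 1.07 (SE 0.23, adjusted p = 0.00277). Srebf1 had 70.3, 83.7 and 110 CPM in astrocytes and 28.3, 39.0 and 59.8 CPM in neurons, with no overlap and a difference of 1.00 (SE 0.22, adjusted p = 0.00327). Fads2 differed by 0.98 (SE 0.22, adjusted p = 0.00363), again without overlap. The lower member was Insig2, with 7.92 to 13.3 CPM in astrocytes and 9.45 to 26.2 CPM in neurons, a difference of -0.69 (SE 0.21, adjusted p = 0.0254), and its call was lost in 8 of the 18 fits that left out 1 library. The count of 9 moved to 4 without the second clozapine neuron library, to 5 without the second clozapine astrocyte library and to 15 with DESeq2.

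Srebf1 averaged 35.8 ± 10.2 CPM in microglia, 86.5 ± 14.0 CPM in astrocytes and 43.3 ± 13.4 CPM in neurons, and microglia and neurons lay within their SDs. Srebf2 averaged 106 ± 18.2 CPM in microglia, 158 ± 23.1 CPM in astrocytes and 214 ± 75.3 CPM in neurons, and the neuron libraries spread from 126 to 324 CPM. Srebf2 was not called between astrocytes and neurons (-0.40, SE 0.24, adjusted p = 0.216), and those libraries overlapped. In neurons Srebf2 was above Srebf1 per length as well, at 52.2 ± 18.2 TPM against 13.8 ± 5.03 TPM.

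Other lipid genes were counted as lists chosen with earlier results of these data known. Of 15 SREBP partners in lipid synthesis, 1 was higher and 6 lower in microglia than in astrocytes, against 6.55% and 7.96% of all genes. Compared with neurons 0 were higher and 7 lower, against 24.6% and 19.5% of all genes. Acsl3, which activates long-chain fatty acids, differed by -1.70 (SE 0.22, adjusted p = 4.31e-06) and Gpam, which begins glycerolipid synthesis, by -1.60 (SE 0.22, adjusted p = 9.17e-06) between microglia and astrocytes. Of 15 genes of sterol efflux, storage and turnover, 5 were higher and 0 lower in microglia than in astrocytes, against 6.55% and 7.96% of all genes, with a median of 0.35. Against neurons 8 were higher and 3 lower, against 24.6% and 19.5% of all genes. Mylip, which marks the LDL receptor for degradation, differed by 3.11 (SE 0.27, adjusted p = 8.26e-08) and Npc2, a lysosomal sterol carrier, by 1.29 (SE 0.23, adjusted p = 0.000199) between microglia and astrocytes. Of 14 fatty acid oxidation genes, 0 were higher and 9 lower in microglia than in astrocytes, against 6.55% and 7.96% of all genes. Among the lower ones was Acaa2, a thiolase of mitochondrial oxidation, at -1.87 (SE 0.29, adjusted p = 3.67e-05).

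Between microglia and neurons Mylip differed by 3.12 (adjusted p = 2.66e-08) and Npc2 by 2.03 (adjusted p = 5.83e-07), while Dhdds, which begins dolichol synthesis, differed by -1.17 (adjusted p = 0.000256). Of the oxidation genes 1 was higher and 6 were lower in microglia than in neurons, against 24.6% and 19.5% of all genes. The higher one was Cpt1a, the gate of mitochondrial fatty acid entry, at 1.12 (adjusted p = 7.29e-05). Between astrocytes and neurons 6 of the 14 oxidation genes were higher in astrocytes and 0 lower, against 11.5% and 10.1% of all genes, led by Cpt1a at 1.42 (adjusted p = 0.000456). Partners gave 4 higher and 4 lower in astrocytes than in neurons, against these same shares, with Gpam at 1.04 (adjusted p = 0.00279). Efflux genes gave 4 higher and 3 lower, again against 11.5% and 10.1%. Among them were the brain cholesterol hydroxylase Cyp46a1 at -1.07 (adjusted p = 0.00348) and the exporter Abca1 at 1.02 (adjusted p = 0.00608).

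Markers of another cell type moved with these differences. All 12 oligodendrocyte markers were lower in microglia than in astrocytes and 11 of 12 were lower than in neurons, and oligodendrocytes are themselves rich in the transcripts of this programme. All 8 oligodendrocyte precursor markers were lower in microglia than in astrocytes, with a median of -1.39, and 6 of 8 were lower than in neurons, with a median of -0.93. Endothelial markers were higher in microglia for 1 of 8 against astrocytes and 7 of 8 against neurons, with medians of 0.22 and 1.24. With the mean oligodendrocyte marker level as a covariate, 0 members were called in microglia against either other fraction, but 0 of all 37310 genes were called there as well, and Scd1 stood at -2.36 against astrocytes. With this covariate 5 estimates that had been called lower stood above 0 without a call: Hsd17b7 at 0.09 against astrocytes, and Lss at 0.24, Insig1 at 0.09, Tm7sf2 at 0.04 and Scd2 at 0.04 against neurons. The oligodendrocyte RNA and the fraction cannot be told apart in the microglia differences. All 5 erythroid markers and 9 of 12 dissociation-response markers were higher in microglia than in either other fraction, and the part of these and of the precursor and endothelial markers was not tested. In astrocytes against neurons 0 of 12 oligodendrocyte markers were called, with 11 of 12 estimates above 0 and a median of 0.48. Higher in astrocytes were 5 of 12 microglia markers, 4 of 8 endothelial markers and 3 of 8 oligodendrocyte precursor markers, and their part was not tested. There 5 members had an adjusted p under 0.05 with the covariate: Acacb at 1.24, Elovl5 at 0.95, Srebf1 at 0.89, Fads2 at 0.88 and Insig2 at -0.76, where 5165 of all genes were called. With the vehicle libraries alone, 4 members were called in microglia against astrocytes, 5 in microglia against neurons and 0 in astrocytes against neurons by edgeR, where 1446, 2988 and 64 of all genes were called.

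**Figure D3:**
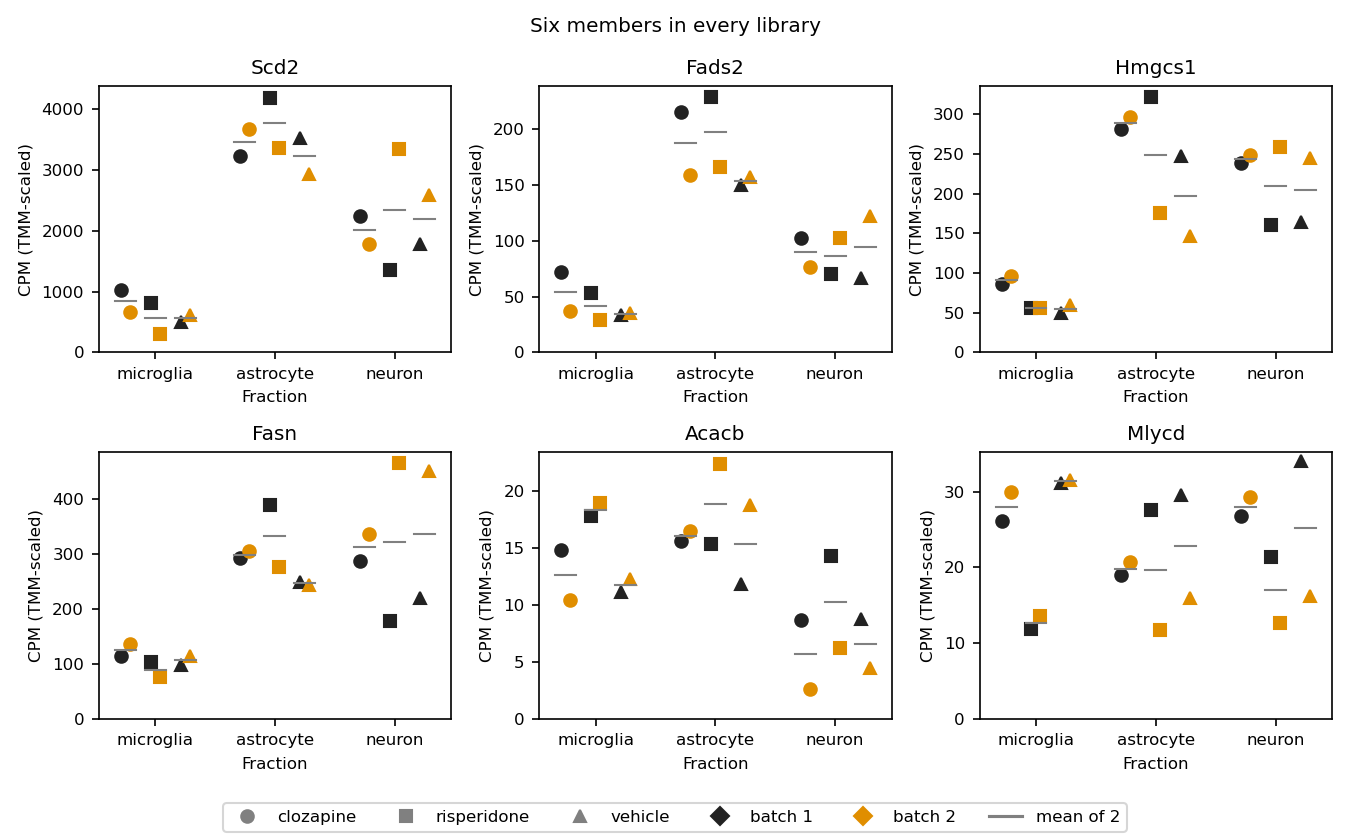
CPM of Scd2, Fads2, Hmgcs1, Fasn, Acacb and Mlycd in every library (points; shape gives the treatment, colour the batch, grey line the mean of 2). Scd2 runs from 306 to 1020 CPM in microglia, 2930 to 4190 CPM in astrocytes and 1350 to 3350 CPM in neurons, and Mlycd is lowest among microglia in the 2 risperidone libraries.

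The drug comparisons ask whether clozapine or risperidone moved the programme in any fraction. No member did so past the threshold: 0 of 36 were called in each of the 9 comparisons of clozapine or risperidone with vehicle or with each other, where 0% of all genes were called too (edgeR, each fraction on its own, 32846 genes in microglia, 31022 in astrocytes and 25510 in neurons). DESeq2 also called 0 members in all 9, and so did batch as a replicate block. A p above the threshold does not show that the groups were alike.

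Clozapine in microglia left most members somewhat above vehicle without a call. Of 36 members 30 had a log2 difference above 0, against 48.8% of all genes, and the median was 0.21 against -0.01. A lean of this size was not particular to the drugs. Batch 2 against batch 1 gave 30 of 36 above 0 in neurons and 10 of 36 in microglia, against 41% and 44.5% of all genes. Within batches, clozapine microglia were above vehicle in both for 22 of the 36 members and below in both for 2, against 29.5% and 22.9% of all genes. Some other drug comparisons gave about as many or more. In astrocytes 20 of 36 were higher in both with clozapine and 22 with risperidone, against 26.1% and 22.9% of all genes. Clozapine against risperidone in microglia gave 28, against 35.8%. Risperidone in microglia gave 4, against 27.3%, and neurons 9 with clozapine and 13 with risperidone, against 29.4% and 25.2%. By edgeR, 1 member had an unadjusted p under 0.05 with clozapine in microglia, against 3.17% of all genes. This was Hmgcs1, with 86.1 and 96.6 CPM in clozapine microglia and 50.2 and 59.3 CPM in vehicle microglia in batches 1 and 2. The clozapine libraries lay above both vehicle libraries, as in 16.5% of all genes, and the log2 difference was 0.68 (SE 0.30, edgeR unadjusted p = 0.0422, adjusted p = 1). Me1 had 23.2 and 23.8 CPM with clozapine and 10.4 and 17.8 CPM with vehicle, a difference of 0.67 (SE 0.40) that stood at 0.31 without the first vehicle library and 1.16 without the second. Fads2 had 71.9 and 37.3 CPM with clozapine and 33.1 and 34.9 CPM with vehicle, a difference of 0.62 (SE 0.39) that stood at 0.09 without the first clozapine library and 1.01 without the second. All 6 desaturases and elongases had estimates above 0, from 0.37 to 0.62.

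Other markers moved beside these values. In clozapine microglia all 12 oligodendrocyte markers and 11 of 12 astrocyte markers had estimates above 0, with medians of 0.65 and 0.53, and 0 of either list were called. Summed oligodendrocyte markers were 2720 and 972 CPM with clozapine and 965 and 1020 CPM with vehicle in batches 1 and 2, and summed astrocyte markers 5090 and 2950 CPM against 2950 and 2340 CPM. With the oligodendrocyte covariate Fads2 stood at 0.19 and Hmgcs1 at 0.69. Dissociation-response markers went the other way, with 12 of 12 below 0 and a median of -0.50. Beyond this their part in the result was not tested.

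Risperidone in microglia gave no common direction: 16 of 36 members had estimates above 0, against 51.2% of all genes, with a median of -0.04. Mlycd had 11.8 and 13.6 CPM in risperidone microglia, against 31.2 and 31.6 CPM in vehicle microglia. Both risperidone libraries were below both vehicle libraries, as in 18.6% of all genes, and the log2 difference was -1.25 (SE 0.32, edgeR unadjusted p = 0.00185, adjusted p = 0.929). Mlycd was also lower than in clozapine microglia, which had 26.1 and 30.0 CPM, and clozapine minus risperidone was 1.03 (SE 0.31, edgeR unadjusted p = 0.00665, adjusted p = 0.671). Idi1 had 2.94 and 3.25 CPM with risperidone and 7.94 and 5.93 CPM with vehicle, a difference of -1.09 (SE 0.44, edgeR unadjusted p = 0.0276, adjusted p = 0.929). Acacb, whose product Mlycd's enzyme removes, had 17.8 and 18.9 CPM with risperidone and 11.1 and 12.3 CPM with vehicle, a difference of 0.71 (SE 0.34). Mlycd and Idi1 were the 2 of 36 members with an unadjusted p under 0.05, a share near the 4.28% of all genes. The second risperidone microglia library had the lowest summed level of all members, 1230 CPM, against 1700 to 2600 CPM in the other 5 microglia libraries, and also the lowest oligodendrocyte sum of all libraries, 476 CPM. In risperidone microglia 11 of 12 neuron markers and 5 of 5 erythroid markers had estimates below 0, with medians of -0.61 and -0.97. So did 12 of 12 microglia markers and 11 of 12 dissociation-response markers, with medians of -0.28 and -0.62. By edgeR 0 of these markers were called, with an unadjusted p under 0.05 for 3 of the dissociation-response list, and their part was not tested. With the oligodendrocyte covariate Mlycd stood at -1.26.

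Between clozapine and risperidone in microglia, 31 of 36 members had estimates above 0, against 47.9% of all genes, with a median of 0.30, and 1 member, Mlycd, had an unadjusted p under 0.05, against 7.38% of all genes. Markers moved with it: 12 of 12 neuron, 8 of 8 endothelial, 5 of 5 erythroid, 11 of 12 oligodendrocyte and 11 of 12 astrocyte markers had estimates above 0, with medians of 0.90, 0.41, 0.58, 0.43 and 0.41 and 0 called, and their part was not tested. Mvk, mevalonate kinase, had 3.01 and 6.14 CPM with clozapine and 8.98 and 7.31 CPM with risperidone, a difference of -0.93 (SE 0.45) that stood at -0.47 without the first clozapine library and -1.51 without the second. Fdps, farnesyl diphosphate synthase, had 18.2 and 16.9 CPM with clozapine and 9.86 and 10.7 CPM with risperidone, a difference of 0.66 (SE 0.33).

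**Figure D4:**
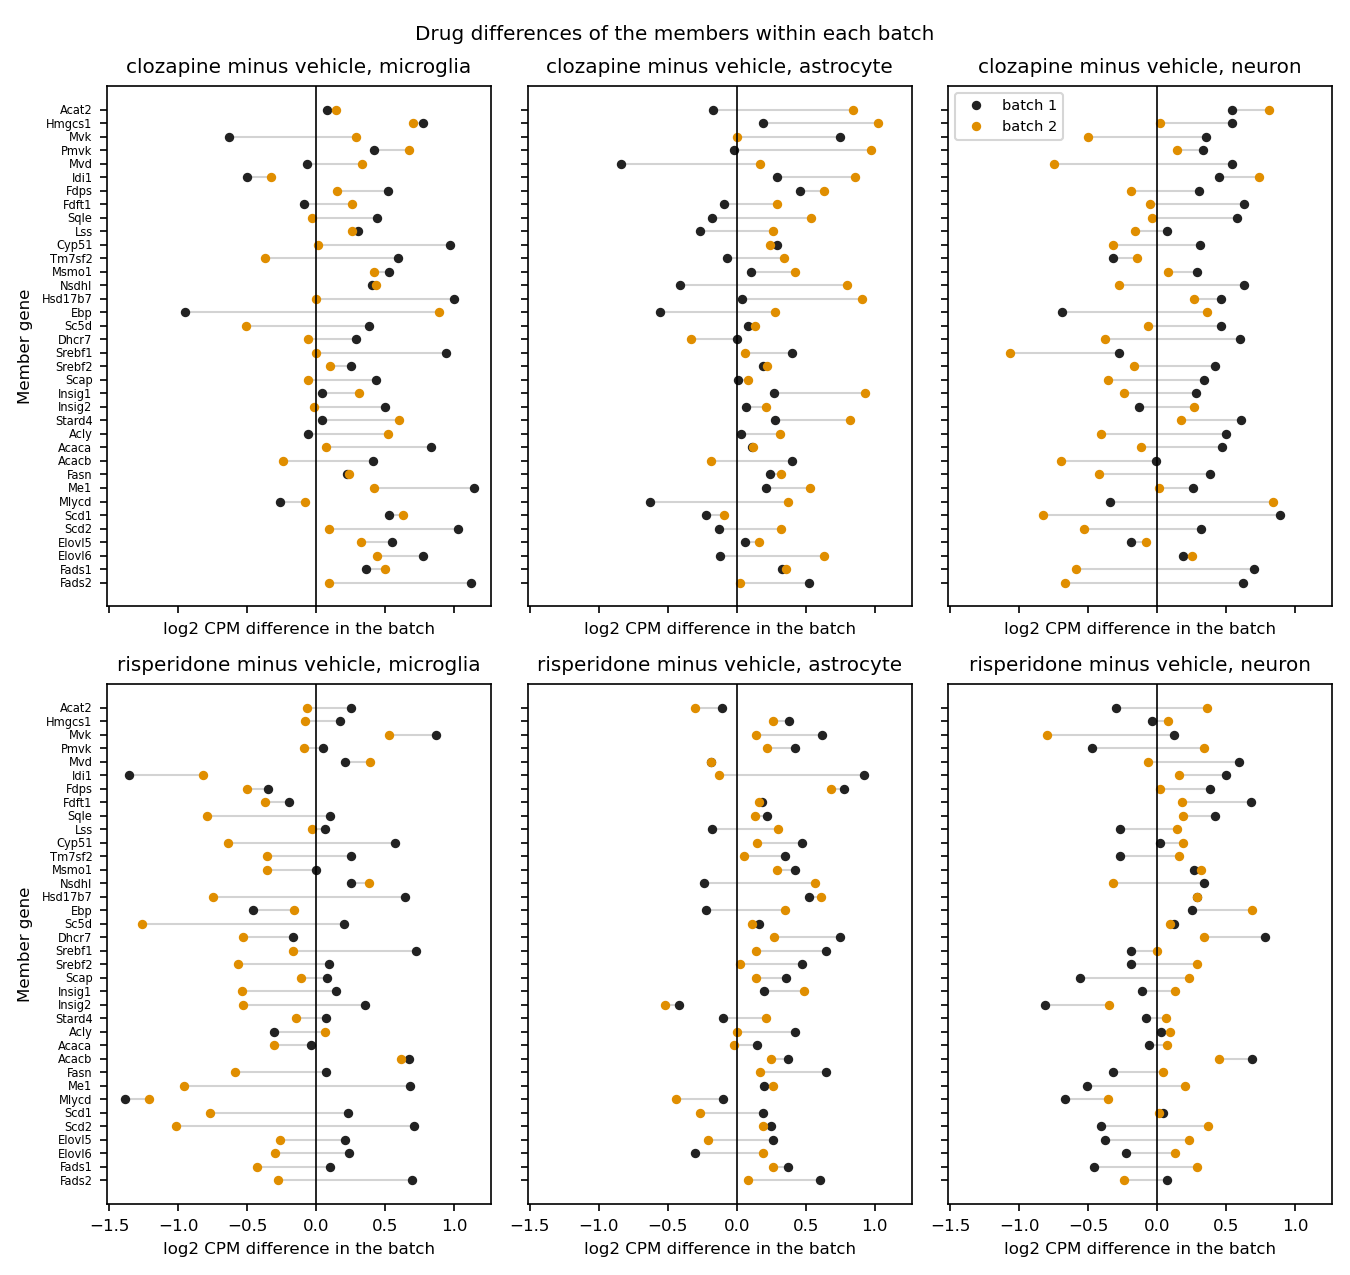
Log2 CPM difference of each member between drug and vehicle within batch 1 (dark points) and batch 2 (orange points), for clozapine (top) and risperidone (bottom) in each fraction, with a grey line joining the batches. Right of 0 in both batches lie 22 of 36 members in clozapine microglia, 20 in clozapine astrocytes and 22 in risperidone astrocytes. Mlycd in risperidone microglia lies at -1.39 and -1.21.

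In astrocytes the estimates leaned above 0 with either drug, and both comparisons use the same vehicle libraries. With clozapine 30 of 36 members had estimates above 0, against 46.8% of all genes, with a median of 0.17. With risperidone it was 31 of 36, against 49.4% of all genes, with a median of 0.23. Batch 2 against batch 1 leaned the members as far in astrocytes, downward, with 5 of 36 above 0, against 58.6% of all genes. Fdps had 33.6 and 30.1 CPM with clozapine, 42.1 and 31.1 CPM with risperidone and 24.4 and 19.4 CPM with vehicle. Both drug groups lay above both vehicle libraries, as in 15.2% of all genes for clozapine and 8.14% for risperidone. The log2 difference from vehicle was 0.52 (SE 0.34) for clozapine and 0.75 (SE 0.34, edgeR unadjusted p = 0.0493, adjusted p = 1) for risperidone. Insig1, an SREBP target that feeds back on SCAP, had 123 and 142 CPM with clozapine and 102 and 74.5 CPM with vehicle, a difference of 0.57 (SE 0.39). Stard4 had 44.9 and 36 CPM with clozapine and 36.8 and 20.3 CPM with vehicle, a difference of 0.49 (SE 0.39) that stood at 0.99 without the first vehicle library and 0.13 without the second. Dhcr7, the last reductase before cholesterol, had 37.0 and 34.3 CPM with clozapine and 62.4 and 52.0 CPM with risperidone, a difference of -0.71 (SE 0.34). With vehicle it had 37.0 and 43.1 CPM, below both risperidone libraries, and risperidone minus vehicle was 0.52 (SE 0.34). Hsd17b7, a sterol ketoreductase, had 47.3 and 34.6 CPM with risperidone and 33.0 and 22.6 CPM with vehicle, a difference of 0.57 (SE 0.36) that stood at 0.87 without the first vehicle library and 0.31 without the second. The unadjusted p was under 0.05 for 0 members with clozapine and 1 with risperidone, against 1.25% and 0.645% of all genes. Between clozapine and risperidone 9 of 36 members had estimates above 0, against 45.7% of all genes, and 0 had an unadjusted p under 0.05 by edgeR, against 1.06% of all genes. Insig2 had 12.4 and 13.3 CPM with clozapine and 8.76 and 7.92 CPM with risperidone, a difference of 0.59 (SE 0.38). Its groups did not overlap, with clozapine higher, as in 11.8% of all genes. Acat2 had 13.8 and 21.2 CPM with clozapine and 14.4 and 9.45 CPM with risperidone, an overlap, and its difference of 0.53 (SE 0.40) ran from 0.21 without the second clozapine library to 0.88 without the first risperidone library. In that comparison 0 of 12 astrocyte, 0 of 12 microglia and 0 of 5 erythroid markers were above 0, with medians of -0.34, -0.39 and -0.60, and 12 of 12 neuron markers were above 0, with a median of 0.54. In clozapine astrocytes against vehicle 12 of 12 neuron markers had estimates above 0, and in risperidone astrocytes against vehicle 12 of 12 astrocyte markers did, with 0 called in any of these, and their part was not tested.

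In neurons the members split evenly, with 19 of 36 above 0 for clozapine and 18 of 36 for risperidone, against 47.1% and 49.8% of all genes, and medians of 0.02 and 0.00. Srebf1 had 34.2 and 28.3 CPM in clozapine neurons and 41.6 and 59.8 CPM in vehicle neurons, a difference of -0.73 (SE 0.33, edgeR unadjusted p = 0.0510, adjusted p = 1) that stood at -0.48 without the second vehicle library. Acat2, a thiolase that makes acetoacetyl-CoA, had 21.5 and 25.5 CPM with clozapine and 14.8 and 14.4 CPM with vehicle, a difference of 0.64 (SE 0.35). Insig2 had 9.45 and 17.0 CPM with risperidone and 16.8 and 21.8 CPM with vehicle, a difference of -0.58 (SE 0.39) that stood at -0.27 without the first risperidone library and -0.97 without the second. Dhcr7 had 29.7 and 40.6 CPM with risperidone and 17.1 and 32.1 CPM with vehicle, a difference of 0.49 (SE 0.35) that stood at 0.13 without the first vehicle library and 0.95 without the second. Mlycd had 21.4 and 12.6 CPM with risperidone and 34.1 and 16.2 CPM with vehicle, a difference of -0.57 (SE 0.45) that stood at 0.10 without the first vehicle library. In Insig2, Dhcr7 and Mlycd the risperidone and vehicle neurons overlapped. Idi1 had 15.7 and 18.6 CPM with clozapine and 11.4 and 11.1 CPM with vehicle, a difference of 0.56 (SE 0.38). No member had an unadjusted p under 0.05 with either drug by edgeR, against 2.81% of all genes for clozapine and 0.8% for risperidone, and DESeq2 called 0 members. Between clozapine and risperidone in neurons 17 of 36 members had estimates above 0, against 46.4% of all genes, and 0 had an unadjusted p under 0.05, against 3.26% of all genes. Against risperidone neurons, at 36.4 and 59.6 CPM, Srebf1 in clozapine neurons differed by -0.62 (SE 0.33), with -0.32 without the second risperidone library. Acat2, at 11.9 and 18.6 CPM with risperidone, differed by 0.61 (SE 0.35), with 0.37 without the first risperidone library. Insig2 had 15.3 and 26.2 CPM with clozapine and differed from risperidone by 0.64 (SE 0.39), with 0.18 without the second clozapine library. All 12 microglia markers had estimates below 0 in neurons with either drug against vehicle, with medians of -1.37 for clozapine and -1.05 for risperidone. With clozapine against vehicle 5 of 5 erythroid and 8 of 8 oligodendrocyte precursor markers were also below 0, with medians of -1.39 and -0.38, and against risperidone 5 of 5 erythroid markers were, with a median of -2.13. By edgeR 0 of these markers were called, and the erythroid list had an unadjusted p under 0.05 for 2 markers against vehicle and 3 against risperidone. Their part was not tested.

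Whether a drug difference itself differed between fractions was tested with the interaction of treatment and fraction, pool as a block. In each of 6 such tests 0 of 36 members were called, while 1 of 37310 genes, or 0.00268%, was called in 1 of them, risperidone in astrocytes minus neurons, and 0% in the other 5. An unadjusted p under 0.05 was reached by 2 members for risperidone in microglia minus astrocytes and 1 in microglia minus neurons, against 0.734% and 1.03% of all genes. Idi1 had an interaction of -1.58 (SE 0.62, edgeR unadjusted p = 0.0186, adjusted p = 1) for microglia minus astrocytes and -1.44 (SE 0.62, edgeR unadjusted p = 0.0299, adjusted p = 1) for microglia minus neurons. Fdps had -1.16 (SE 0.54, edgeR unadjusted p = 0.0430, adjusted p = 1) for microglia minus astrocytes. Next by p for risperidone were Mlycd at -1.06 (SE 0.57) in microglia minus astrocytes, Mvk at 1.07 (SE 0.63) and Dhcr7 at -0.92 (SE 0.55) in microglia minus neurons, and Mvk at 0.73 (SE 0.62), Fdps at 0.54 (SE 0.54) and Srebf1 at 0.45 (SE 0.57) in astrocytes minus neurons. For clozapine the smallest p belonged to Idi1 at -1.01 (SE 0.60), Scd1 at 0.80 (SE 0.78) and Mvk at -0.51 (SE 0.64) in microglia minus astrocytes. In microglia minus neurons it was Srebf1 at 1.17 (SE 0.57), Idi1 at -1.03 (SE 0.61) and Fads2 at 0.66 (SE 0.64), and in astrocytes minus neurons Srebf1 at 0.92 (SE 0.57), Insig1 at 0.60 (SE 0.62) and Fdps at 0.49 (SE 0.53). For microglia minus astrocytes Idi1 ran from -2.34 without the second risperidone astrocyte library to -0.79 without the first, and Fdps from -1.68 without the first vehicle astrocyte library to -0.73 without the first risperidone astrocyte library. For microglia minus neurons Idi1 was -0.82 without the first risperidone microglia library. Of these 18 interaction values 12 moved by over 1.5 times or changed sign when 1 library was left out. For risperidone, 12 of 12 microglia, 12 of 12 neuron and 5 of 5 erythroid markers had estimates below 0 in microglia minus astrocytes. Their medians were -0.81, -0.57 and -1.64. In microglia minus neurons 12 of 12 neuron and 5 of 5 erythroid markers were below 0 with risperidone, with medians of -0.64 and -0.63. For clozapine against vehicle, the 12 microglia markers had medians of -0.15 in microglia, -0.41 in astrocytes and -1.37 in neurons. By edgeR 0 of these markers were called, and their part was not tested.

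Batch was balanced over the treatments and is a label of the series. Estimates of batch 2 minus batch 1 were above 0 for 10 of 36 members in microglia, 5 in astrocytes and 30 in neurons. The shares of all genes were 44.5%, 58.6% and 41%. In batch 2 against batch 1, 1 member was lower in microglia, 1 was lower in astrocytes, and 3 were higher and 1 lower in neurons. Of all genes, 2% were called in either direction in microglia, 4.21% in astrocytes and 7.94% in neurons. The counts of members lie near these shares and so are no result about the members as a set. In microglia Elovl5 had 45.1, 30.0 and 36 CPM in batch 2 and 93.4, 73.4 and 63.5 CPM in batch 1 for clozapine, risperidone and vehicle. The batches did not overlap, and the log2 difference was -1.05 (SE 0.23, adjusted p = 0.0111). In astrocytes Scd1 had 313, 276 and 333 CPM in batch 2 and 598, 797 and 698 CPM in batch 1, with no overlap and a difference of -1.18 (SE 0.30, adjusted p = 0.0222). Next by p, and not called, were Insig1 at -0.60 (SE 0.24, adjusted p = 0.327) and Nsdhl at -0.67 (SE 0.28, adjusted p = 0.342) in microglia, and Pmvk at -0.77 (SE 0.26, adjusted p = 0.0868) and Nsdhl at -0.77 (SE 0.26, adjusted p = 0.0886) in astrocytes. Without the first risperidone library of the fraction Insig1 stood at -0.25 and Pmvk at -0.52, and without the first vehicle astrocyte library Nsdhl stood at -0.51 in astrocytes.

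Neuron libraries of batch 2 were higher in Acly (0.91, SE 0.25, adjusted p = 0.0268), in Srebf2 (0.85, SE 0.25, adjusted p = 0.0378) and in Fasn (0.89, SE 0.27, adjusted p = 0.0388). Fasn had 336, 465 and 451 CPM in batch 2 and 287, 177 and 220 CPM in batch 1 for clozapine, risperidone and vehicle. Acacb went the other way, with 2.64, 6.17 and 4.45 CPM in batch 2 and 8.69, 14.3 and 8.73 CPM in batch 1, a difference of -1.29 (SE 0.29, adjusted p = 0.0120). In both Fasn and Acacb the batches did not overlap. In microglia 10 of 12 neuron markers were higher in batch 2, and 7 of 12 astrocyte, 5 of 5 erythroid, 2 of 12 oligodendrocyte and 2 of 12 dissociation-response markers were lower. Summed oligodendrocyte markers stood at 476 to 1020 CPM in batch 2 and 965 to 2720 CPM in batch 1 in microglia. They stood at 7460 to 8950 CPM in batch 2 and 16400 to 38500 CPM in batch 1 in neurons, and at 6850 to 10500 CPM in batch 2 and 27900 to 43900 CPM in batch 1 in astrocytes. Taken marker by marker in astrocytes, Mobp (-3.97) and Mbp (-3.46) were lower in batch 2, while 9 of the 12 markers had estimates above 0, 1 of them called, with a median of 0.51. There 2 of 12 astrocyte markers and 1 of 8 endothelial markers were lower and 6 of 12 dissociation-response markers higher in batch 2. In neurons 5 of 8 endothelial, 2 of 12 oligodendrocyte and 1 of 5 erythroid markers were lower, 2 of 8 oligodendrocyte precursor markers and 1 of 12 astrocyte markers higher, and of 12 dissociation-response markers 5 were higher and 2 lower. Summed neuron markers in the neuron fraction were 13900 to 15500 CPM in batch 2 and 6480 to 10600 CPM in batch 1, and the part of these markers in the batch differences was not tested. The counts of members called between batches turned on single libraries: leaving each out in turn gave 0 to 1 in microglia, 0 to 4 in astrocytes and 0 to 7 in neurons, with 0 in microglia without any 1 of its 6 libraries, 0 in astrocytes without either risperidone astrocyte library and 0 in neurons without either risperidone neuron library.

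**Figure D5:**
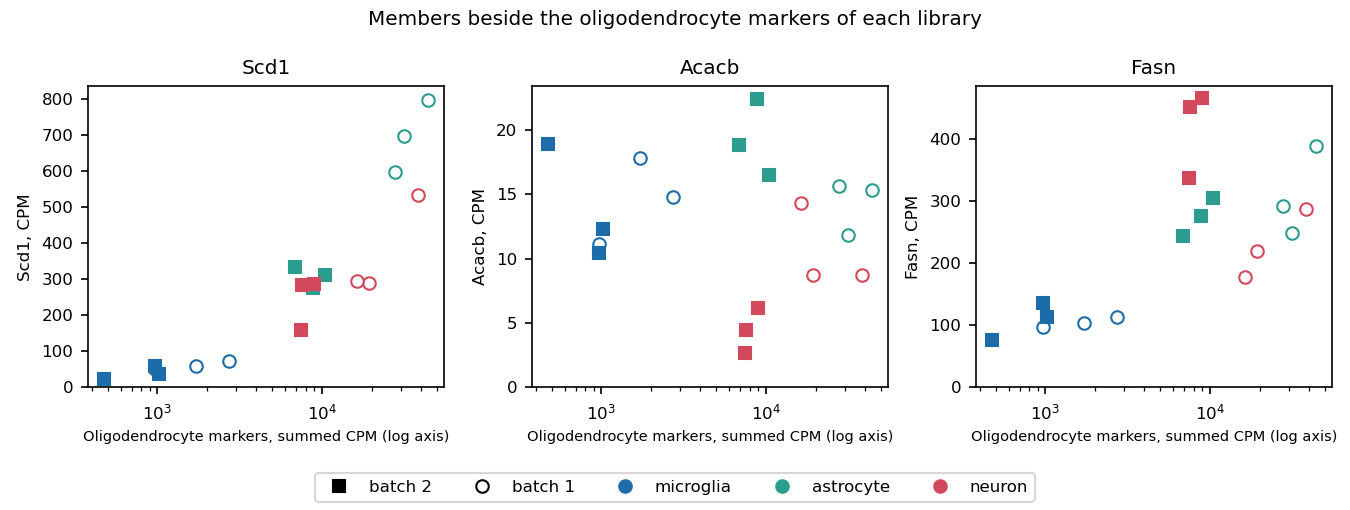
CPM of Scd1, Acacb and Fasn in each library against the summed CPM of 12 oligodendrocyte markers (log axis), with batch 2 filled, batch 1 open and colour for the fraction. The astrocyte libraries of batch 2, at 6850 to 10500 CPM of markers, hold 276 to 333 CPM of Scd1, against 598 to 797 CPM in those of batch 1, at 27900 to 43900 CPM.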

How the data were processed

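Gene counts were deposited per library and as 1 combined table; per the file headers the authors made these counts with featureCounts v2.0.8 on GRCm39, over exons, for paired reads, without strand and with reads counted for every gene they overlap. Read quality was checked with FastQC, per the submitters' processing notes, and the aligner was not given in the sources used here. Symbols were matched by gene ID for 52029 of 56953 identifiers, and the 36 members had the same counts in both tables. No pair of libraries held identical counts.

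Genes passed edgeR's filterByExpr over the groups in each fit, the 9 groups in fits of all 18 libraries and the 3 treatments in fits of 1 fraction, and were scaled by TMM. CPM values are scaled by TMM, and TPM values use exon length. Tests were edgeR 4.0.16 quasi-likelihood fits in R 4.3.3, with Benjamini-Hochberg adjustment over all genes tested and a call at an adjusted p under 0.05. Fractions were compared over 18 libraries with pool as a block. Drugs were compared within a fraction over 6 libraries without a block, batches in 1 fit of 9 groups with batch within fraction, and interactions with pool as a block. The difference between the batches was taken per gene in each group and correlated between groups. Within a fraction these correlations were 0.099 to 0.447 over 9 pairs of groups, 1 of them below 0.1. For the same treatment in different fractions, which the pool block joins, they were -0.388 to 0.122 over 9 pairs. The pairing rests on the batch label. DESeq2 1.42.0, RLE scaling, no low-count filter, an adjusted p under 0.10, an oligodendrocyte covariate, other sample sets, the block and each library left out were the alternatives. The scripts were tested on simulated data.

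For each comparison the text gives the test for up to 4 called members per direction by smallest p, or for the 3 of smallest p where fewer than 3 were called, and names other members by level, count or role. It names up to 2 called genes of each other lipid list in a fraction comparison, except 1 gene that is not reported here. The tests of Srebf2 between astrocytes and the other fractions were given outside this rule, after its values were seen. Members and lists were chosen with earlier results of these data known.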

Additional observations from a re-analysis of the deposited data

Results flagged for a closer look

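Mvk in astrocytes had 1 library apart from the rest: the vehicle library of batch 1 held 7.59 CPM, against 11.8 to 15.1 CPM in the other 5 astrocyte libraries. It was 1 of 108 groups of 6 libraries examined, and chance sets apart about 1 in 20 such groups.

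In a test added after the values were seen, the difference between batch 2 and batch 1 was called unlike in astrocytes and neurons for 6 of 36 members, against 15.7% of all genes, a share near that background and so no result about the members. The batch difference in astrocytes minus that in neurons was -1.12 for Pmvk, -1.14 for Nsdhl, -1.05 for Srebf2, -0.92 for Stard4, -1.18 for Fads1 and 1.72 for Acacb on the log2 scale. In batch 2 against batch 1, 2 of 12 oligodendrocyte markers were lower and 1 higher in astrocytes, 2 were lower in neurons, and 7 of 12 neuron markers were higher in neurons. Of 12 dissociation-response markers 6 were higher in astrocytes, 5 higher and 2 lower in neurons, and 5 of 8 endothelial markers were lower in neurons. Their part was not tested.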

How the results depend on the processing

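The 2 microglia comparisons called 26 and 28 members. Without any 1 library they called 26 to 26 and 23 to 27, and with RLE scaling 26 and 24. Astrocytes against neurons called 9, 4 to 10 without any 1 library, 13 with RLE and 15 with DESeq2. The oligodendrocyte covariate gave 0, 0 and 5 in the 3 fraction comparisons, and 0 in microglia between batches. Vehicle libraries alone, with the replicate block, gave 4, 5 and 0, from 6 libraries in place of 18. Without the replicate block the fraction comparisons gave 26, 27 and 7 and the interactions 0, and with batch as a replicate block the 9 drug comparisons gave 0.

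Between batches, the counts without any 1 library were 0 to 1 in microglia, 0 to 4 in astrocytes and 0 to 7 in neurons. No low-count filter gave 2 in astrocytes and 2 in neurons, an adjusted p under 0.10 gave 4 and 7, and the 6 neuron libraries alone gave 0. The drug comparisons and interactions gave 0 to 0 without any 1 library. Over the members given with a test by the naming rule, 1274 differences under the alternatives kept direction and side of the threshold, 65 lost the call, 14 gained it and 2 changed sign: Mlycd with risperidone in neurons, -0.57 with all libraries, stood at 0.10 without the first vehicle neuron library and -1.11 without the first risperidone neuron library, and the risperidone effect on Srebf1 in astrocytes minus neurons, 0.45 with all libraries, stood at -0.04 without the first risperidone neuron library and 1.22 without the second. In this tally a value of unchanged sign that was called in neither fit counts as kept, whatever its size. When 1 library was left out, 13 of 27 drug differences and 3 of 10 batch differences moved by over 1.5 times or changed sign. So did 12 of 18 interactions and 0 of 14 fraction differences. The 5 estimates that crossed 0 with the oligodendrocyte covariate lie outside the tally. The cause was not tested. With 2 pools per group, drug differences well above the SEs printed could remain without a call, as for Mlycd with risperidone in microglia.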
